A study of Mus musculus with 2 samples.

Results

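The 10 genes described here are receptors, effectors and partners of the signals that hold adult neural stem cells in quiescence: the receptors Notch1 and Notch2, the transcriptional repressors Hes1, Hes5 and Hey1, the dominant-negative regulators Id1, Id2, Id3 and Id4, and the stem cell factor Sox2. They were chosen by symbol, and all 10 were found among the 22587 gene symbols of both count matrices. YFP+ cells had been sorted from the hippocampi of 12-week-old mice, 4 weeks after tamoxifen (TAM) given at 8 weeks of age, and 3 animals were pooled per genotype into 1 library of the 10x Genomics 3′ v2 assay. CT animals carried Nestin-CreERT2 and the Rosa26 YFP reporter without floxed Opa1, and Opa1 cKO animals carried floxed Opa1 in addition. The strain label reads Opa1-Flox;Nestin-CreERT2;ROSA26YFP for both libraries, and the control is identified as Opa1-Flox negative by the sorting protocol. Both genotypes received TAM, so Cre was induced in both. The YFP gate held every cell in which Nestin-CreERT2 had recombined the reporter and not stem cells alone.

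Notch receptors are cleaved after binding a ligand on a neighbouring cell, and the released intracellular domain joins RBPJ in the nucleus to switch on Hes and Hey genes, whose bHLH repressor proteins silence proneural genes. Id proteins are helix-loop-helix factors without a DNA-binding region. They bind E proteins, keep these from pairing with proneural factors, and are themselves induced by BMP signalling through SMAD proteins. In the adult hippocampus both pathways keep radial-glia-like stem cells out of the cell cycle, and astrocytes and vascular cells use many of the same genes. OPA1, the deleted protein, fuses the inner mitochondrial membrane and maintains its cristae.

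Sequencing gave 10799936 UMIs (unique molecular identifiers, each a counted mRNA molecule) from 4634 CT barcodes and 18662032 UMIs from 6475 Opa1 cKO barcodes. The filters named in the study's methods left 1790 and 3764 cells with medians of 2555 and 3008 UMIs. Without the step that required a YFP UMI, 4186 CT and 6121 Opa1 cKO cells passed. The paper reports more cells of each genotype than were kept here, so the cells read here are not its full set. Before any filter, 36 barcode sequences were found in both libraries. A clustering that did not use the 10 genes gave 8 clusters, which fell by their markers into 7 classes with 1789 CT and 3762 Opa1 cKO cells. Astrocyte-like cells were the largest class with 1344 CT and 2704 Opa1 cKO cells. They came mostly from different clusters in the libraries. A cluster led by Apoc1, Etnppl and mitochondrial mRNAs held 1326 of the CT cells and 812 of the Opa1 cKO cells. A cluster led by the stress genes Nupr1 and Gdf15 and by Fibin held 1892 of the Opa1 cKO cells and 18 of the CT cells. This cluster took the astrocyte-like name only in a second naming pass, which left the type most like it out of the comparison. Opa1 itself was at 18.7 CPM (95% counting interval 14.6 to 23.7) in CT and 7.39 CPM (5.72 to 9.40) in Opa1 cKO astrocyte-like cells, the direction that the labels give. Every other class had at most 9 Opa1 UMIs in either library. Opa1 was higher in Opa1 cKO in mural-like (6.05 CPM in CT, 14.6 CPM in Opa1 cKO) and endothelial-like cells (8.59 and 12.9 CPM), with overlapping intervals, and lower in the rest. Its loss is thus not shown in every class. CPM is a gene's UMIs scaled by all UMIs of the class, and in this 3′ assay it is not divided by gene length. Each genotype had a single library, so nothing could be tested between genotypes, and cells are not replicates. All intervals cover counting error only, and a difference between libraries cannot be told apart from a difference between genotypes.

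The genes lie on mm10 as annotated by GENCODE M21, and a 3′ assay counts mainly the last exon and 3′ end of each. Notch1 (ENSMUSG00000026923) spans chromosome 2, 26457903 to 26516663, on the minus strand, and Notch2 (ENSMUSG00000027878) chromosome 3, 98013527 to 98150361, on the plus strand. Hes1 (ENSMUSG00000022528) spans chromosome 16, 30064384 to 30067796, and Hes5 (ENSMUSG00000048001) chromosome 4, 154960923 to 154962371, both on the plus strand. Hey1 (ENSMUSG00000040289) spans chromosome 3, 8663359 to 8667256, on the minus strand. Of the Id genes, Id1 (ENSMUSG00000042745) spans chromosome 2, 152736251 to 152737410, on the plus strand and Id2 (ENSMUSG00000020644) chromosome 12, 25093799 to 25097140, on the minus strand. Id3 (ENSMUSG00000007872) spans chromosome 4, 136143497 to 136145755, and Id4 (ENSMUSG00000021379) chromosome 13, 48261228 to 48266026, both on the plus strand. Sox2 (ENSMUSG00000074637) spans chromosome 3, 34650405 to 34652461, on the plus strand. Exons of Id4, Hes5 and Notch1 overlap annotated genes on the opposite strand, so their counts are less certain where reads were assigned without strand. Exons of Notch2 overlap Gm42820 on the same strand, where strand cannot tell the reads apart. No exon of the 10 genes overlaps a gene that has a row in the matrices.

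The promoter sequence of Hes5 is shown because Hes5, a direct Notch target, was among the members that differed most between the libraries. That of Id3 is shown because Id3, a BMP target, was the member most reduced in Opa1 cKO astrocyte-like cells with little mitochondrial mRNA. Both are the 250 bases before the start of the RefSeq gene on GRCm38.p6, the assembly of mm10, 5′ to 3′ on the plus strand. The RefSeq start need not be the GENCODE start given above: for Id3 the printed bases lie inside the GENCODE span, as do those of Id2 and Notch1, which are not printed, while for Hes5 they end at the base before it. Hes5 is at chr4:154960673-154960922 and Id3 at chr4:136143572-136143821. Capitals mark the RBPJ motif GTGGGAA or its reverse complement TTCCCAC.
Hes5: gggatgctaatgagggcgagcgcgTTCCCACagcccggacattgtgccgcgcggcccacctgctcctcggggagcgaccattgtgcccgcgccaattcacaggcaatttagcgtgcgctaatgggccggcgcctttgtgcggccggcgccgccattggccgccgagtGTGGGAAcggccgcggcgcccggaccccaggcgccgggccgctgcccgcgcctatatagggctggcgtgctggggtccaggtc
Id3: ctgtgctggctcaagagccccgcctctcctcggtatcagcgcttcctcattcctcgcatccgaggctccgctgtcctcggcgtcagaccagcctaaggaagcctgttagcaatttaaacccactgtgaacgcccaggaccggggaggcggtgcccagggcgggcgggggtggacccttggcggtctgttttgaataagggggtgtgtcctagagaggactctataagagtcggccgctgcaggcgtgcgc
The first bases of the 2 Hes5 matches lie at -226 and -83 from the RefSeq start, 1 on each strand, and the motif occurs in 5.42% of 32851 promoters of the same length. Promoters of 7 of the 10 genes were in the RefSeq table, without Id1, Hes1 and Hey1, and Hes5 was the only 1 of the 7 with a match. The SMAD motif GGCGCC, its own reverse complement and present in 9.59% of promoters, was found 4 times for Hes5 and 1 time each for Id2 and Id4. A match of letters is no evidence of binding.

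Across classes, the receptors had different distributions, since Notch2 was a gene of radial glia and astrocytes and Notch1 a gene of vessels. Notch2 was highest in radial-glia-like cells at 945 (CT) and 715 CPM (Opa1 cKO), followed by astrocyte-like cells at 405 and 289 CPM, and both steps in the order exceeded counting error in both libraries. In every other class Notch2 was at most 108 CPM. Notch1 was highest in endothelial-like cells at 219 (CT) and 150 CPM (Opa1 cKO), and mural-like cells, at 194 and 134 CPM, did not differ from them beyond counting error. In astrocyte-like cells Notch1 was 73.9 and 81.6 CPM and in radial-glia-like cells 49.8 and 61.2 CPM. Both receptors were low in oligodendrocyte-like cells, with Notch1 at 17.4 and 23.0 CPM and Notch2 at 69.5 and 23.0 CPM.

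Among the effectors, Hes5 was highest in radial glia and astrocytes, Hes1 in the vascular classes and Hey1 in the ependymal class. Hes5 was 697 CPM in radial-glia-like and 503 CPM in astrocyte-like cells of CT, a step beyond counting error, while in Opa1 cKO these classes were at 264 and 261 CPM and were not told apart. The next class for Hes5 was at 78.6 (CT) and 97.6 CPM (Opa1 cKO). Hes1, which many signals besides Notch induce, was highest in mural-like cells at 357 and 429 CPM and next in endothelial-like cells at 305 and 299 CPM, of which only the Opa1 cKO step exceeded counting error. Astrocyte-like cells had 88.2 CPM of Hes1 in CT and 137 CPM in Opa1 cKO. Hey1 was 164 and 182 CPM in ependymal-like cells, 103 and 106 CPM in endothelial-like cells and 76.0 and 119 CPM in astrocyte-like cells. Its ependymal-like level exceeded the next class beyond counting error in Opa1 cKO and not in CT. It stood at 49.8 and 55.1 CPM in radial-glia-like cells and at 8.89 and 18.2 CPM among the progenitor and neuron-like cells.

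The 4 Id genes each had their own distribution. Id4 was highest in radial-glia-like cells at 2472 (CT) and 1839 CPM (Opa1 cKO) and high in ependymal-like (1461 and 1202 CPM) and astrocyte-like cells (1447 and 1393 CPM). It was the most abundant member in the radial-glia-like and ependymal-like classes, while in CT astrocyte-like cells it was level with Id2. The ependymal-like and astrocyte-like levels of Id4 did not differ beyond counting error in CT and did in Opa1 cKO. Id2 was highest in astrocyte-like cells at 1437 and 1203 CPM and second in the progenitor and neuron-like class at 738 and 824 CPM, where it was the highest of the 10 genes. Id3 and Id1 were highest in endothelial-like cells. Id3 was 970 and 921 CPM there, 660 and 534 CPM in astrocyte-like cells, 460 and 602 CPM in mural-like cells and 547 and 146 CPM in radial-glia-like cells. In CT the last 3 classes followed each other in Id3 without a step beyond counting error from astrocyte-like to radial-glia-like or from there to mural-like cells. Id1 was 653 and 846 CPM in endothelial-like cells and no more than 141 CPM in any other class. Sox2, which maintains stem cell identity and is also made by astrocytes and ependymal cells, was between 312 and 521 CPM in ependymal-like, astrocyte-like and radial-glia-like cells of both libraries. Its levels in these 3 classes were not told apart in CT.

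**Figure D1:**
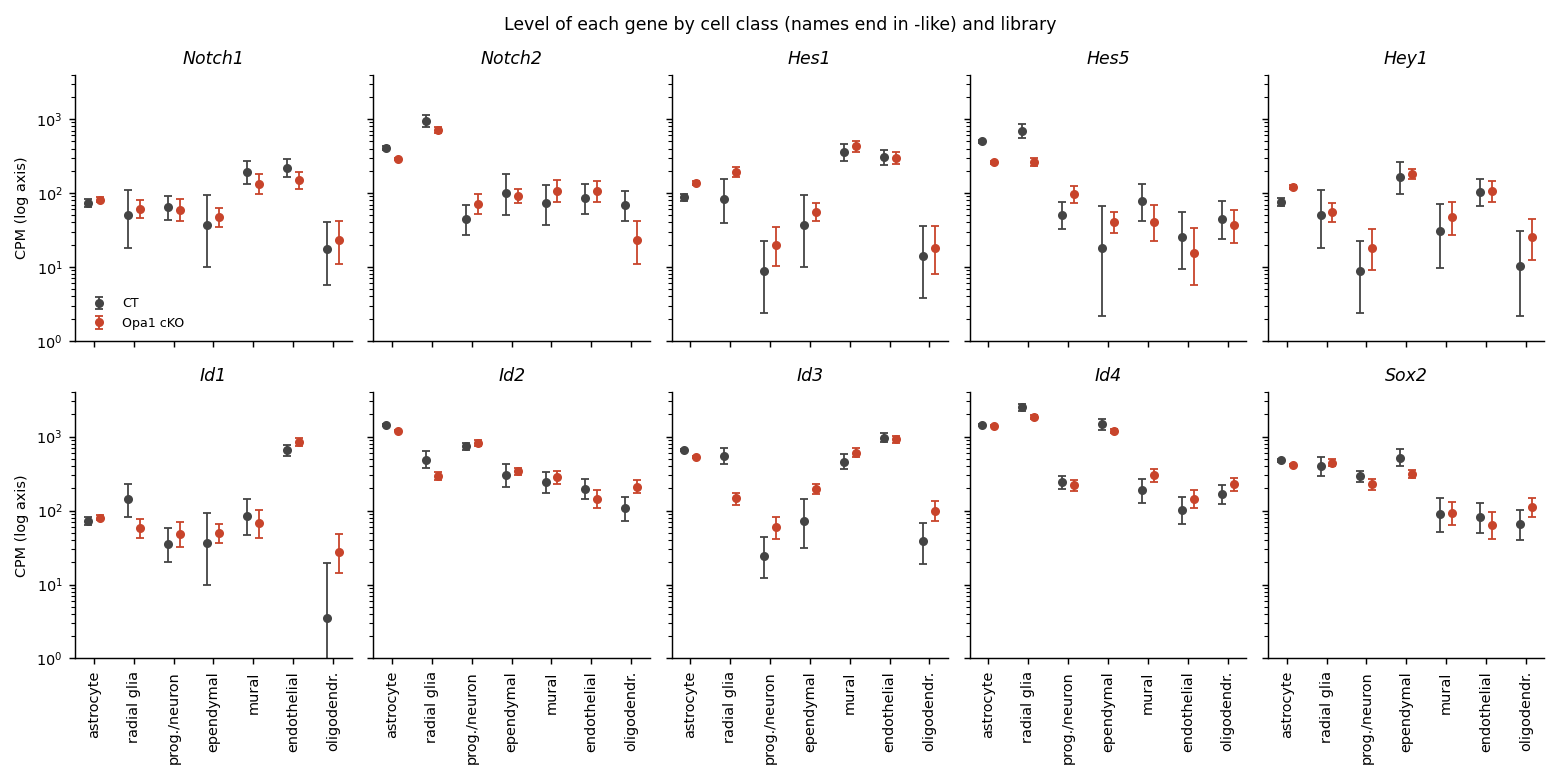
Level of each of the 10 genes in CPM (log axis, from 1) in the 7 classes, with CT and Opa1 cKO as separate points and 95% Poisson intervals as bars. Notch2, Hes5 and Id4 are highest in radial-glia-like cells, Id1, Id3, Hes1 and Notch1 are highest in endothelial-like or mural-like cells.

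Free RNA in the droplets can give a UMI to cells that do not make a gene, so shares of cells with a UMI were read beside oligodendrocyte-like cells, after thinning each cell to 1500 UMIs. Median depths before thinning were 2491 and 2995 UMIs in astrocyte-like and 3767.5 and 3914 UMIs in oligodendrocyte-like cells of CT and Opa1 cKO. Hes5 had a UMI in 38.8% (36.1 to 41.5) of thinned CT astrocyte-like cells and in 2.70% of oligodendrocyte-like cells. For Hes1 these shares were 12.7% (10.9 to 14.7) and 4.05%, the latter with an upper bound of 11.4% from 74 cells. Id4, at 82.2%, was also found in 12.2% of oligodendrocyte-like cells, so shares near this size in other classes cannot be read as expression. In thinned astrocyte-like cells a mean of 3.70 of the 10 genes had a UMI in CT and 3.40 in Opa1 cKO, against 0.405 and 0.653 in oligodendrocyte-like cells.

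In astrocyte-like cells, Opa1 cKO over CT, the Hes and Hey effectors did not move together. Hes1 was 137 CPM in Opa1 cKO and 88.2 CPM in CT (log2 ratio 0.63, interval 0.45 to 0.81), and Hey1 119 and 76.0 CPM (0.65, 0.46 to 0.85). Hes5 went the other way, at 261 CPM in Opa1 cKO and 503 CPM in CT (-0.95, -1.03 to -0.86). These were the 3 members past 1.5-fold, 2 higher and 1 lower. Of 8816 genes with at least 100 UMIs, 24% passed that fold, 13.8% higher and 10.2% lower, so 3 of 10 is close to the share among all genes. The shares of thinned cells with a UMI had the same directions. Hes1 was found in 17.8% of Opa1 cKO against 12.7% of CT cells and Hey1 in 15.9% against 9.91%, while Hes5 was found in 22.5% against 38.8%.

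The other members differed less. Notch2 was 289 CPM in Opa1 cKO and 405 CPM in CT (-0.49, -0.58 to -0.40). Id3 was 534 against 660 CPM (-0.31, -0.38 to -0.24), Id2 1203 against 1437 CPM (-0.26, -0.30 to -0.21) and Sox2 417 against 476 CPM (-0.19, -0.27 to -0.11). Each of these intervals lay below 0, yet none of the 4 genes was past 1.5-fold. Id4 was almost level at 1393 and 1447 CPM (-0.06, -0.10 to -0.01). For Id1 (79.7 and 73.0 CPM; 0.13, -0.08 to 0.33) and Notch1 (81.6 and 73.9 CPM; 0.14, -0.06 to 0.35) the intervals included 0. The median log2 ratio was -0.12 over the members and 0.07 over all genes tested. Mitochondrially encoded mRNAs summed to 58747 CPM in the CT cells and 21001 CPM in the Opa1 cKO cells, and the integrated stress response (ISR) genes summed to 2655 (CT) and 8203 CPM (Opa1 cKO). With mitochondrial UMIs left out of the denominator the ratio of Hes1 was 0.57, and in thinned cells 0.51, both under 1.5-fold (0.58 on the log2 scale), and the direction held. The part of the stress genes in the members' ratios was not tested.

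**Figure D2:**
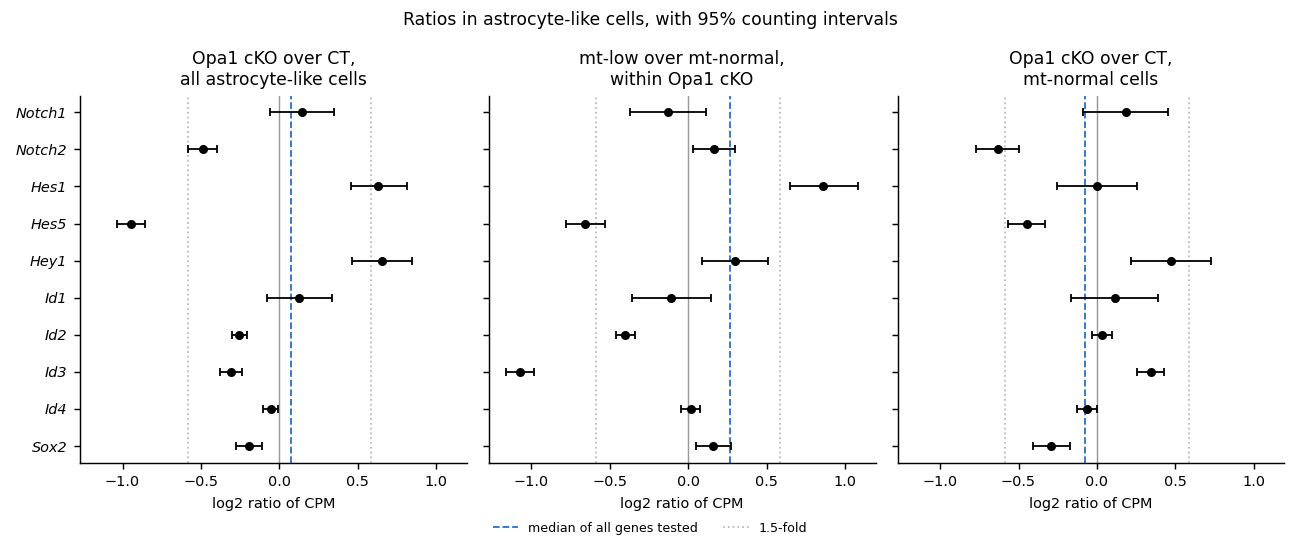
Log2 ratio of CPM for each gene in astrocyte-like cells, with 95% counting intervals, for Opa1 cKO over CT, for mt-low over mt-normal cells within Opa1 cKO and for the mt-normal cells of Opa1 cKO over those of CT; dashed lines mark the median of all genes and dotted lines 1.5-fold. Hes1 and Hes5 lie on opposite sides of 0 in the first comparison, Id3 is the lowest in the second at -1.07 and Notch2 the lowest in the third at -0.63.

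The Opa1 cKO library was a mixture of cells with very different mitochondrial mRNA levels, which allowed a comparison within 1 library. Among its astrocyte-like cells 1625 had under 1% of UMIs from the 13 mitochondrially encoded mRNAs (mt-low) and 762 had at least 3% (mt-normal), with 317 between. Of the CT cells 1233 were mt-normal and 3 mt-low. The median depths of the Opa1 cKO groups were close, at 2994 UMIs in mt-low and 3018.5 in mt-normal cells. The groups also differed in clusters, since 1554 of the mt-low cells were in the stress-gene cluster and 690 of the mt-normal cells in the other. The limits were set by hand, and 108 cells lay within 0.1 percentage points of the lower limit and 63 within 0.3 of the upper.

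Mt-low cells had more Hes1, less Hes5 and much less Id3 than mt-normal cells of the same library. Hes1 was 159 CPM in mt-low and 87.7 CPM in mt-normal cells (log2 ratio 0.86, 0.65 to 1.08). Hes5 was 231 against 364 CPM (-0.66, -0.78 to -0.53), and Id3 391 against 822 CPM (-1.07, -1.16 to -0.98). These 3 were past 1.5-fold, 1 higher and 2 lower, where 25.6% of 7458 genes passed, 22.5% higher and 3.1% lower. Only 0.684% of these genes had a ratio below that of Id3 and 2.33% one below that of Hes5. The shares of thinned cells moved the same way. Hes1 had a UMI in 20.7% of mt-low and 12.7% of mt-normal cells, Hes5 in 20.1% and 29.4%, and Id3 in 25.2% and 45.4%.

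Id2, the most abundant Id gene of astrocytes beside Id4, was 1113 CPM in mt-low and 1469 CPM in mt-normal cells (-0.40, -0.46 to -0.34). Hey1 was 129 against 105 CPM (0.30, 0.09 to 0.51), Notch2 293 against 261 CPM (0.16, 0.03 to 0.30) and Sox2 430 against 385 CPM (0.16, 0.05 to 0.27). These are small differences, and the median of all genes lay at 0.27 in this comparison, so Notch2 and Sox2 were below it. Id4 (1374 and 1360 CPM), Id1 (73.5 and 79.2 CPM) and Notch1 (77.6 and 84.8 CPM) had intervals that included 0. The members' median was -0.05, and 8 of the 10 were below the median of all genes. Markers of other cells moved with the split. The sum of the 9 oligodendrocyte precursor markers was 410 CPM in mt-low and 150 CPM in mt-normal cells, of which Olig1 made up 346 and 113 CPM, with Pdgfra and Gpr17 at 0 in both groups. The 12 endothelial markers were at 211 and 184 CPM, with Kdr at 0. ISR genes summed to 10569 and 3143 CPM. The part of these in the members' levels was not tested.

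Finer bins of the mitochondrial share gave the shape of each relation. In Opa1 cKO, Hes1 was 162, 155, 148 and 109 CPM in cells with under 0.5%, 0.5 to 1%, 1 to 2% and 2 to 3%, and 91.3, 95.8 and 48.3 CPM from 3 to 5%, 5 to 8% and over 8%. Hes1 thus declined with the mitochondrial share, and CT cells went from 110 CPM at 3 to 5% to 38.0 CPM over 8%, after 92.2 CPM at 2 to 3%. Id3 in Opa1 cKO went up from 392 and 390 CPM in the lowest bins to 542, 709 and 900 CPM at 3 to 5%, and was 767 and 775 CPM above. In CT, Id3 ran the other way, at 821, 746, 618 and 501 CPM from 2 to 3% to over 8%. Every member but Notch1 was lower in CT over 8% than at 2 to 3%, so the CT decline was not particular to Hes1. Hes5 in Opa1 cKO did not follow the share in order. It was 280 CPM under 0.5%, 149 and 136 CPM between 0.5 and 2%, 512 CPM at 3 to 5% and 265 CPM in both bins above. The bin at 3 to 5% held 314 cells, and outside it the Hes5 level of mt-normal cells was close to that of the cells under 0.5%. With the limits moved to 0.5% and 4% the Hes5 ratio was -0.20, while those of Hes1 and Id3 stayed past 1.5-fold.

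**Figure D3:**
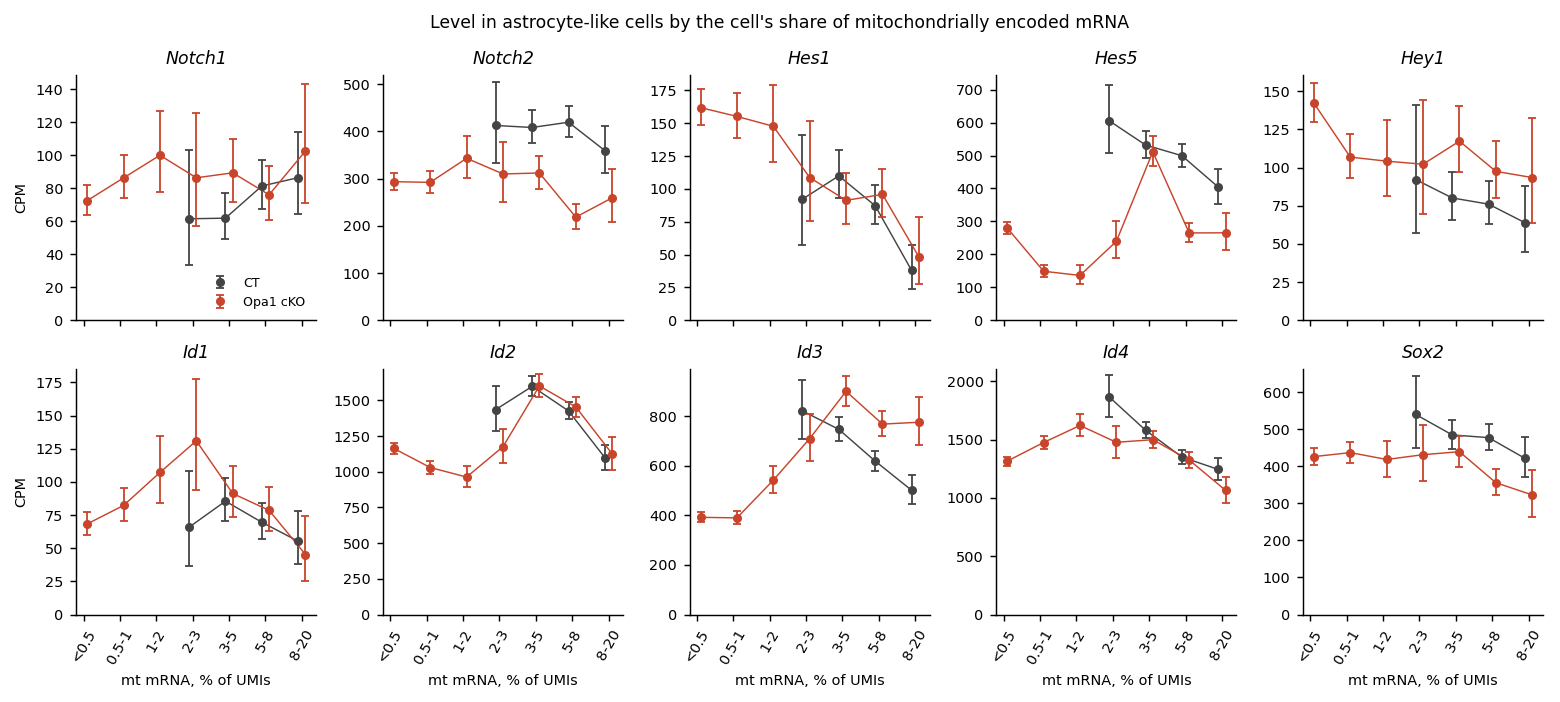
CPM of each gene in astrocyte-like cells by the share of UMIs from mitochondrially encoded mRNAs, with bins on the horizontal axis, the libraries as separate lines and 95% Poisson intervals as bars. In Opa1 cKO Hes1 declines from 162 to 48.3 CPM across the bins, Id3 goes up to 900 CPM at 3 to 5%, and Hes5 peaks in that bin at 512 CPM.

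Among mt-normal astrocyte-like cells, Opa1 cKO over CT, Hes1 was level and Notch2 was lower in Opa1 cKO. Hes1 was 87.7 CPM in Opa1 cKO and 87.5 CPM in CT (log2 ratio 0.00, -0.26 to 0.26). Notch2 was 261 against 405 CPM (-0.63, -0.77 to -0.50), an interval that overlaps the one over all astrocyte-like cells, and was the only member past 1.5-fold where 12.3% of 6507 genes were, 1.54% higher and 10.8% lower. Hes5 was 364 against 496 CPM (-0.45, -0.56 to -0.33). Id3 turned, at 822 CPM in Opa1 cKO and 648 CPM in CT (0.34, 0.26 to 0.43), and Hey1 was 105 against 75.6 CPM (0.47, 0.22 to 0.73). Sox2 was 385 against 471 CPM (-0.29, -0.41 to -0.17), and Id1, Id2, Id4 and Notch1 were between -0.06 and 0.18. The median was 0.02 over the members and -0.08 over all genes. In the cluster that held most CT cells, taken alone, no member was past 1.5-fold, where 11% of 6727 genes were, 1.62% higher and 9.34% lower, and Notch2 (-0.55) and Hes5 (-0.37) were the lowest.

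Cells of the class were not alike in Id3 and Hes5. Over thinned cells the variance of Id3 UMIs was 3.03 times the mean in CT and 3.80 times in Opa1 cKO, and that of Hes5 2.25 and 2.73 times, where counting alone gives a value near 1. Notch1 (1.07 and 0.984) and Sox2 (1.13 and 1.12) were near that value. The 5% of cells with most Id3 held 34.1% of its UMIs in CT, 42.5% in Opa1 cKO and 51.8% in mt-low cells, and for Hes5 these shares were 33.5%, 48.4% and 52.3%. Such shares also depend on the mean count, which fell from 0.946 in CT to 0.603 in mt-low cells for Id3. For Hes5 it fell from 0.743 to 0.382. For Notch1 the shares were 53.7%, 46.9% and 48.2%, so they do not by themselves show uneven cells. By the variance, the intervals above are narrower than the spread of cells for Id3 and Hes5. To a lesser degree this also holds for Notch2 (1.68 in CT and 1.55 in Opa1 cKO), Id2 (1.68 and 1.58), Id4 (1.59 and 1.56) and Id1 (1.46 and 1.51). Id1 and Id3, which BMP induces together in many cells, were found in the same cells. Id3 had a UMI in 67.0% of CT cells with an Id1 UMI and in 36.0% of those without, and in Opa1 cKO in 65.8% and 29.1%. No other pair differed by as many percentage points. Endothelial markers, whose cells have most Id1 and Id3, summed in astrocyte-like cells to 188 (CT) and 202 CPM (Opa1 cKO), against 19820 and 18882 CPM in endothelial-like cells. In CT, Sox2 was found in 42.7% of cells with a Notch2 UMI and 54.4% of those without, a difference that was small in Opa1 cKO (44.3% and 46.2%).

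Radial-glia-like cells are the class nearest to quiescent stem cells, and there were 44 in CT and 285 in Opa1 cKO, with median depths of 2603 and 2588 UMIs. The class rested on markers such as Frzb, and its leading genes also held the microglial gene C1qb. Those leading genes were read before Opa1 cKO barcodes with 123 and 156 microglial-marker UMIs were left out of the class. The class then held 70 cells with a microglial-marker UMI, and at most 4 such UMIs in any. Compared with astrocyte-like cells of CT, it was higher in Notch2 (log2 ratio 1.22), Id1 (0.95) and Id4 (0.77) and lower in Id2 (-1.55) and Hey1 (-0.61), where 47.4% of 5184 genes were past 1.5-fold, 25.5% higher and 21.8% lower. In Opa1 cKO only Notch2 was higher past that fold (1.31), and Id2 (-2.03), Id3 (-1.87) and Hey1 (-1.12) were lower, where 32.3% of 8110 genes were past it, 18% higher and 14.2% lower. Notch2 was thus higher and Id2 lower than in astrocyte-like cells in both libraries. With 5 of 10 members past the fold in CT and 4 of 10 in Opa1 cKO, the members were close to the shares among all genes. Lower Id2 was not particular to this class, since Id2 was highest in astrocyte-like cells among all classes. The interval of Hey1 in CT, from 6 UMIs, ran from -2.07 to 0.53. Alternatives were not run for these comparisons with astrocyte-like cells. The ratios of Id3 and Id2 between the libraries in this class depended on the clustering, as given below.

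Between the libraries, Hes5 and Id3 were lower in the radial-glia-like cells of Opa1 cKO, and the Id3 difference depended on how the cells were clustered. Id3 was 146 CPM in Opa1 cKO and 547 CPM in CT (log2 ratio -1.91, -2.36 to -1.45). Hes5 was 264 against 697 CPM (-1.40, -1.77 to -1.02), and Id2 295 against 489 CPM (-0.73, -1.15 to -0.29). Hes1 was the member that was higher, at 195 CPM from 159 UMIs in Opa1 cKO and 82.9 CPM from 10 UMIs in CT (1.23, 0.31 to 2.32). These were 4 of the 7 members that reached 100 UMIs, where 27.9% of 1802 genes were past 1.5-fold, 21.3% higher and 6.6% lower. That minimum was on both libraries together, and most UMIs came from the larger Opa1 cKO class. Genes lower in Opa1 cKO therefore reached it less easily, and the 4 of 7 and the shares of all genes depend on it. Id4 was 1839 against 2472 CPM (-0.43, -0.61 to -0.24), Notch2 715 against 945 CPM (-0.40, -0.70 to -0.10) and Sox2 445 against 398 CPM (0.16, -0.28 to 0.63). Id1, Hey1 and Notch1 stayed under 100 UMIs, with 57.5 against 141 CPM, 55.1 against 49.8 CPM and 61.2 against 49.8 CPM. The Id1 interval, from 47 and 17 UMIs, lay below 0 (-1.29, -2.12 to -0.40), while those of Hey1 and Notch1 included 0. The median of all genes was 0.18. With all variable genes used for clustering, the class held 388 Opa1 cKO and 41 CT cells, and the ratio was -0.16 for Id3 and 0.12 for Id2, while Hes5 was at -1.63 and Hes1 at 0.94. Without the cells that held a microglial-marker UMI, Hes5 was at -1.01, Id3 at -2.11, Id2 at -1.21 and Hes1 at 2.71. Without the YFP filter no cluster took the name of this class.

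Immediate early genes, which tissue dissociation induces, moved with this comparison. Their list of 16 summed to 8227 CPM in the radial-glia-like cells of CT and 3254 CPM in those of Opa1 cKO, with Fos at 2820 and 852 CPM, against 711 and 859 CPM in astrocyte-like cells. Oligodendrocyte precursor markers summed to 415 (CT) and 144 CPM (Opa1 cKO), with Olig1 at 224 and 55.1 CPM. The part of either in the member genes was not tested. All 44 CT cells were mt-normal, while Opa1 cKO had 69 mt-low, 165 intermediate and 51 mt-normal cells. Across these 3 groups Hes1 was 319, 180 and 120 CPM, Hes5 438, 195 and 298 CPM and Id3 150, 120 and 212 CPM. The 51 mt-normal Opa1 cKO cells were thus below CT in Id3 and Hes5 in this clustering. Id4 was 2127, 1889 and 1438 CPM in the same order. Mt-low over mt-normal, no member of the 5 with enough UMIs was past 1.5-fold, where 12% of 568 genes were, 5.81% higher and 6.16% lower. Id4 (0.57, 0.33 to 0.81) and Hes5 (0.56, 0.02 to 1.10) were just under it with intervals above 0. The direction of Hes5 was opposite to that in astrocyte-like cells. Hes1 had a ratio of 1.41 (0.65 to 2.21) in this comparison from 51 and 21 UMIs. Median depths differed, at 2185 UMIs in mt-low and 3369 in mt-normal cells.

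**Figure D4:**
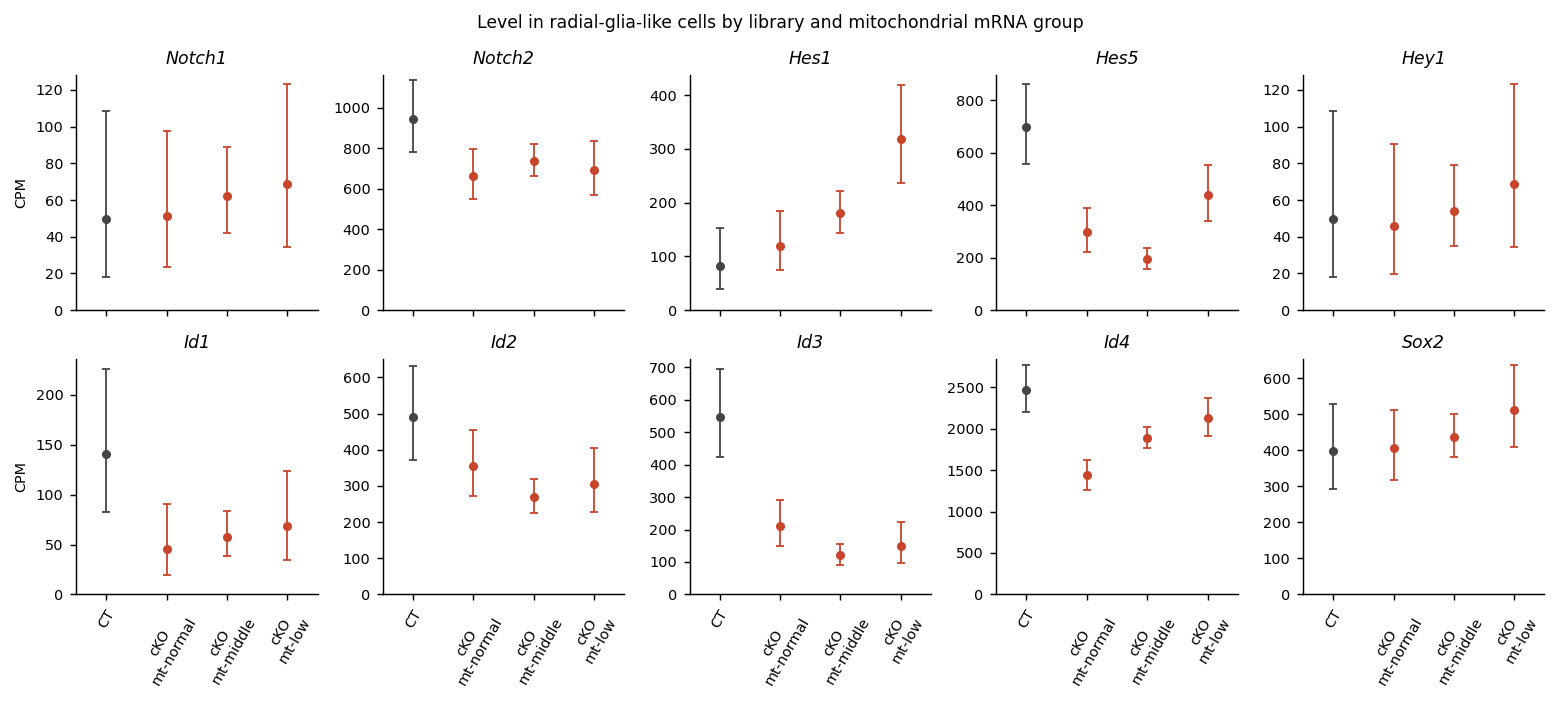
CPM of each gene in radial-glia-like cells of CT and of the 3 mitochondrial mRNA groups of Opa1 cKO (mt-normal, mt-middle and mt-low), with 95% Poisson intervals as bars. Id3 and Hes5 lie below CT in every Opa1 cKO group, and Hes1 is highest in the mt-low cells at 319 CPM.

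In the remaining classes few members had enough UMIs. In ependymal-like cells Id3 was 197 CPM in Opa1 cKO and 73.1 CPM in CT (log2 ratio 1.43, 0.42 to 2.66, from 8 UMIs in CT), and the immediate early genes, which also differed between the radial-glia-like cells, summed to 4780 and 2183 CPM there, a shift whose part was not tested. Sox2 was 312 against 521 CPM in that class (-0.74, -1.15 to -0.31). These 2 of 5 members compare with 24% of 1949 genes past 1.5-fold, 18% higher and 6.05% lower. Here too most UMIs behind the minimum came from Opa1 cKO, with 244 cells against 39 in CT. In mural-like cells Id4 was 298 against 188 CPM (0.67, 0.08 to 1.30), 1 of 4 members where 24.5% of 940 genes were past the fold, 16.7% higher and 7.77% lower. In oligodendrocyte-like cells Id2 was 211 against 108 CPM (0.97, 0.37 to 1.61), 1 of 2 members where 16% of 1266 genes were, 9% higher and 7.03% lower. Oligodendrocyte-like cells were the reference for free RNA above. The mean number of members with a UMI in their thinned cells was 0.653 in Opa1 cKO and 0.405 in CT. Id4 was 227 and 167 CPM in them, not told apart from mural-like cells beyond counting error in either library. The part of free RNA in both differences was not tested. None of 3 members was past it among progenitor and neuron-like cells, where 22.7% of 2022 genes were, 11.4% higher and 11.2% lower. None of 5 was past it among endothelial-like cells, where 16.5% of 1143 genes were, 8.22% higher and 8.31% lower. Mt-low over mt-normal within the progenitor and neuron-like class of Opa1 cKO, Id2 alone had enough UMIs and was not past it (0.22), where 16.1% of 641 genes were, 10.3% higher and 5.77% lower. Hes5 in progenitor and neuron-like cells was 97.6 CPM (59 UMIs) in Opa1 cKO and 51.1 CPM (23 UMIs) in CT, under the minimum of 100 UMIs, and the 15 astrocyte markers in these cells summed to 2324 and 1398 CPM in the same order, whose part was not tested.

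The wider Notch pathway was read in astrocyte-like cells from lists, Opa1 cKO over CT, beside the 24% of all genes past 1.5-fold. Of the Notch nuclear complex and targets, 15 of 20 genes had enough UMIs, none was higher and 5 were lower past the fold, with a list median of -0.47. Among the lower ones were the acetyltransferase gene Kat2b (-1.42) and the corepressor gene Spen (-0.99). Of the 15 tested genes for other receptors and receptor processing, Aph1c of the gamma-secretase complex was higher (0.64) and the protease gene Adam10 lower (-0.66). Of 10 genes for ligand endocytosis and inhibitors the ligase gene Mib1 was lower (-0.71), and of 2 ligands Dner was lower (-0.59). In mt-normal cells Mib1 (-0.80), Adam10 (-1.18) and Spen (-0.96) were also lower in Opa1 cKO, together with the ligand gene Jag1 (-0.80), while within Opa1 cKO Adam10 was higher in mt-low cells (0.60).

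The BMP lists had members in both directions. Of 9 tested ligands and antagonists, Bmper (0.87) and Nog (0.66), which encode secreted BMP regulators, were higher, and 4 were lower, among them the antagonist gene Chrdl1 (-1.38) and Bmp7 (-0.99). Of 14 receptors and SMADs, Smad2 was higher (0.64) and 3 were lower, among them the pseudoreceptor gene Bambi (-0.88) and the receptor gene Bmpr1b (-0.75). In mt-normal cells Chrdl1 (-0.88) and Bambi (-1.13) were again lower in Opa1 cKO. Of 9 bHLH partners and proneural factors, Olig1 (1.64) and Olig2 (0.98) were higher and the E protein gene Tcf12 (-0.59) lower. Olig1 and Olig2 are also in the precursor marker list, whose sum was 130 (CT) and 332 CPM (Opa1 cKO). Of 30 other stem cell and quiescence factors 3 were higher and 5 lower. The cell cycle inhibitor gene Cdkn1a stood at 88.1 CPM in Opa1 cKO and 1.90 CPM in CT (5.53) and Gfap, the filament of astrocytes and radial glia, at 1176 and 425 CPM (1.47), while Foxo1, a transcription factor of stem cell maintenance, stood at 33.3 and 66.5 CPM and the surface protein gene Prom1 was also lower (-0.86). Cdkn1a (3.72) and Gfap (1.34) were also higher in mt-low than in mt-normal cells.

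The gene with a pattern most like each member was found by Pearson's r of log2(CPM + 10) over the 14 library-by-class groups, among 7145 genes with at least 300 UMIs. The groups of 1 library share its depth and free RNA, so these values are descriptions. Id4 was most like Rfx4 (r = 0.976), Ntrk2 (0.962) and Sox9 (0.958), Hes5 most like Dio2 (0.958) and Notch2 most like Cables1 (0.946). Hes1 was most like Copz2 (0.965), Notch1 most like Jak1 (0.945), Id1 most like Slc31a1 (0.93) and Id3 most like Shisa5 (0.925). For Hey1 the closest gene was Msrb2 (0.948), for Sox2 Pdlim4 (0.942) and for Id2 Dlgap1 (0.90). Between members, Id4 and Sox2 were closest (0.884), then Id3 and Hes1 (0.859), Hes1 and Notch1 (0.828) and Hes5 and Notch2 (0.818), and the lowest value was that of Id4 and Notch1 (-0.317).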

How the data were processed

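Single-cell 3′ libraries of YFP+ hippocampal cells were made by the authors, 1 per genotype with 3 mice pooled in each. The submitters' processing notes name mm10 and Cell Ranger 2.1.1, while the headers of the deposited matrices name version 3.1.0. The authors deposited UMI counts per gene and barcode, not normalized and not yet filtered to the cells of the study, and whether strand was used in counting is not given in the sources used here. The 10 genes, the gene lists and the limits were chosen with earlier results of these data known.

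Cells with over 600 and under 7500 genes, under 20% mitochondrial UMIs and 1 or more Eyfp UMIs were kept. Both libraries were joined, normalized with SCTransform and clustered on 8 dimensions at resolution 0.2 (R 4.3.3, Seurat 5.3.0, sctransform 0.4.2), with 125 genes (the members, the Notch and BMP lists, mitochondrial genes and Eyfp) kept out of the features. A cluster was named from markers among its 50 genes of highest fold, with at least 3 needed. This naming rule took its form once the clusters were known, and 3 barcodes with 20 or more microglial UMIs were left out after the data had been seen. No doublets were removed, since the caller tried marked too few barcodes to be used.

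UMIs of each class were summed within a library and divided by the class total (python 3.11.15 with scipy 1.17.1, numpy 2.4.6, scanpy 1.11.5 and pandas 2.3.3). CPM has exact Poisson intervals, shares have Clopper-Pearson intervals, and those of log2 ratios were derived from an exact binomial interval on the share of 1 count in both, all at 95%. A gene was counted as past the fold at 1.5-fold if it had at least 100 UMIs in both groups together. Where 1 group was much larger, genes low in that group reached this minimum less easily. Thinning to 1500 UMIs dropped shallower cells, 151 of CT and 321 of Opa1 cKO. Tested on simulated counts, the intervals held the true value as designed. This does not extend to genes such as Id3 and Hes5, and less so Notch2, Id2, Id4 and Id1, whose counts varied between cells by more than counting error. The named genes are the 10 members, for each pathway list up to 2 genes per direction with the largest ratio, and for each member the 3 most alike genes or fewer. Other genes named were chosen after their values were seen. The alternatives are given in the closing section.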

Additional observations from a re-analysis of the deposited data

How the results depend on the processing

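In the 3 comparisons of astrocyte-like cells, of 310 single members' ratios under alternatives, 286 stayed within the counting interval and 301 kept the sign. The 9 that changed sign had main ratios within 0.12 of 0 (Id1, Id2, Id4 and Hes1). In astrocyte-like cells, Opa1 cKO over CT, 3 members were past 1.5-fold, and 2 with mitochondrial UMIs, or these and ISR UMIs, left out of CPM and in thinned cells, where Hes1 fell under the fold. In mt-low over mt-normal cells 3 were past it, and 2 without the YFP filter, with cells weighted equally, in thinned cells and with limits at 0.5% and 4%, where Hes5 fell under the fold. In mt-normal cells, Opa1 cKO over CT, 1 was past it, and 2 with limits at 0.5% and 4%, where Hes5 (-0.60) joined Notch2. The causes were not tested. A minimum of 200 genes per cell, clustering on all variable genes, resolution 0.4 and a minimum of 20 UMIs kept these counts. Leaving out cells over 3 times the median UMIs, an alternative chosen after seeing the data, removed 7 CT and 28 Opa1 cKO cells and kept them too. Leaving out called doublets was not run, since scrublet marked only 5 of 4634 and 1 of 6475 barcodes. No paired analysis was possible because each genotype had 1 library. No replicate could be left out. In radial-glia-like cells, Opa1 cKO over CT, alternatives were added after seeing the data, and 82 of 90 ratios stayed within the counting interval. There 4 members were past 1.5-fold and 1 (Hes5) in thinned cells, where fewer reached 100 UMIs. Clustering on all variable genes moved Id3 from -1.91 to -0.16, reversed Id2 from -0.73 to 0.12 and put 3 past it, and its cause was not tested. Without the YFP filter no radial-glia-like class formed, so it gave no value. CT rests there on 44 cells and, for Hes1, on 10 UMIs. Alternatives were not run for the other classes or for other comparisons of radial-glia-like cells.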
